A study of Arabidopsis thaliana with 18 samples.

Results

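In Arabidopsis thaliana seedlings with altered RNase III-like or Dicer-like genes, 10 SPL genes targeted by the microRNA miR156 were followed by RNA sequencing. They are SPL2 (AT5G43270), SPL3 (AT2G33810), SPL4 (AT1G53160), SPL5 (AT3G15270), SPL6 (AT1G69170), SPL9 (AT2G42200), SPL10 (AT1G27370), SPL11 (AT1G27360), SPL13A (AT5G50570) and SPL15 (AT3G57920). The 10 were chosen as named loci, by matching the gene identifiers in the count rows, with no measured value in the rule. They are 10 of 33378 genes counted, and all 10 passed the filter on low counts.

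The 18 libraries were made from whole seedlings of the Columbia-0 background, grown on plates of medium at 22 °C under 18 h light and 6 h dark and taken on day 11 from germination. The 35S-RTL1-Myc seedlings (n = 2) expressed the RNase III-like gene RTL1 from the viral 35S promoter, which is active in most plant tissues. The rtl2-1 seedlings (n = 3) carried a mutation in RTL2, and the 35S-RTL2 seedlings (n = 3) overexpressed RTL2 from the same promoter. A further 3 groups shared the mutations dcl2, dcl3 and dcl4 in Dicer-like genes, written dcl234. Of these, 1 library came from dcl234 plants with a truncated DCL1 under the 35S promoter, 3 from dcl234 plants with 35S-RTL2, and 3 from dcl234 plants without a transgene. The title of the single library names a truncated DCL1 and another of its labels names DCL1RDD; the title is followed here, and what exactly was expressed is not settled by the labels. Unmodified Col-0 plants (n = 3) were the wild type. The labels do not say whether replicates came from separate cultures or how many lines stand behind each construct, so the p-values speak of the spread among these libraries, part of which may be technical.

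SPL proteins are plant-specific transcription factors that share a DNA-binding domain. DCL1 cuts miR156 from its hairpin precursors, and miR156 guides the Argonaute protein AGO1 to SPL transcripts, which are cut or translated less. The microRNA is abundant in young seedlings and declines with age, and the release of the SPL genes drives the passage from juvenile to adult leaves and to flowering. DCL2, DCL3 and DCL4 make mainly small interfering RNAs from long double-stranded RNA, and RTL1 and RTL2 also cut double-stranded RNA. The 10 genes differ in their known roles. SPL3, SPL4 and SPL5 encode short proteins that promote flowering. SPL9 and SPL15 act in leaf initiation and phase change, SPL2, SPL10 and SPL11 in leaf and lateral organ shape, and SPL13A in leaf development and phase change. SPL6 stands apart and is known for a role in innate immunity.

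The microRNA and its sites are shown because each of the 10 genes carries a match. Sequences and coordinates are from RefSeq on assembly TAIR10.1. Of the 12 precursors MIR156A to MIR156H and MIR157A to MIR157D, 6 (MIR156A to MIR156F) give the first mature sequence below, and 3 (MIR157A to MIR157C) give the second, which is 21 bases long instead of 20. The other 3, MIR156G, MIR156H and MIR157D, share the seed of the first. Capitals in these lines mark the seed, bases 2 to 8.
miR156a-5p: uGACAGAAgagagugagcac
miR157a-5p: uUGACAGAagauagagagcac
The next lines give the perfect complement of miR156a-5p and the best-matching site in the transcripts, written 5′ to 3′ in DNA letters. Capitals here mark the bases that differ from the perfect complement.
Perfect complement: gtgctcactctcttctgtca
SPL2, SPL6, SPL9, SPL10, SPL11, SPL13A and SPL15: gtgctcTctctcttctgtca
SPL3: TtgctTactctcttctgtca
SPL4: CtgctcTctctcttctgtca
SPL5: CCgctcTctctcttctgtca

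The first 7 genes share 1 site, identical in all 20 bases, with the single substitution A7T, counted from 1 at the 5′ end of the site. It lies in the coding sequence at chr5:17360758-17360777 in SPL2 (minus strand), chr1:26006731-26006750 in SPL6 (plus), chr2:17589066-17589085 in SPL9 (plus), chr1:9505541-9505560 in SPL10 (minus), chr1:9503618-9503637 in SPL11 (plus), chr5:20582738-20582757 in SPL13A (minus) and chr3:21444834-21444853 in SPL15 (minus). In the 3 short genes the site lies in the 3′ UTR and differs. SPL3 carries G1T and C6T, of which 1 can pair as G with U, at chr2:14305878-14305897 (plus). SPL4 carries G1C and A7T at chr1:19807090-19807109 (plus), and SPL5 carries G1C, T2C and A7T at chr3:5140598-5140617 (minus). RefSeq annotates a further pair of microRNAs, miR156i and miR156j, on the opposite strand exactly at the sites of SPL4 and SPL9, and these are not among the 12. In all 10 genes the stretch that faces the seed matches in full. The best match in the 6 other SPL genes that passed the filter, SPL1, SPL7, SPL8, SPL12, SPL14 and SPL16, had 6 to 8 mismatches.

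Not every row belongs to 1 gene, since the deposited table joins overlapping genes. SPL3 is counted with the long non-coding RNA AT2G33815, which lies on the opposite strand and overlaps it by 1046 bases. SPL5 is counted with AT3G15260, a protein-coding gene on the opposite strand that overlaps it by 1959 bases. SPL13A is counted with AT5G50562 on its own strand, with 0 bases of overlap, and with AT5G50565 on the opposite strand. A difference in these 3 rows cannot be given to the SPL gene alone, and the use of strand in counting is not given in the sources used here. SPL13A also has a duplicate, SPL13B, whose coding sequence is 100% identical over 1080 bases and holds the same target site. The SPL13B row held 0 to 4 counts per library, and how reads common to both copies were assigned is not given either, so the SPL13A value is uncertain. Among the other pairs, SPL10 and SPL11 are the most alike of those compared, with 85.0% identity of the coding sequence.

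Total counts ran from 20775728 to 34874423 per library, and each of the 10 rows held between 170 (SPL13A) and 6246 (SPL2) counts in any library. RTL1 stood at 1585 and 1525 CPM (the count scaled to library size with TMM factors) in the 35S-RTL1-Myc libraries, against 0.167, 0.565 and 0.431 CPM in Col-0. RTL2 reached 515 to 617.5 CPM in 35S-RTL2 and 1674 to 2053 CPM in dcl234 35S-RTL2, and 0.304 to 0.592 CPM in rtl2-1, against 2.89 to 2.98 CPM in Col-0. The DCL2 row, joined with AT3G03305, and the DCL3 row, joined with AT3G43930, were lower in dcl234 than in Col-0. Their log2 changes were −0.75 and −2.64. DCL4 was not called there, at 28.1 ± 3.26 CPM in dcl234 and 31.85 ± 4.29 CPM in Col-0 (SD, n = 3 each). The DCL2 and DCL3 rows were also lower in dcl234 35S-RTL2 than in 35S-RTL2 (log2 −0.69 to −0.6 and −3.54 to −3.19 under other settings). In 35S-RTL1-Myc they were higher than in dcl234 (0.86 to 0.92 and 2.86 to 3.15), as was DCL4 (0.64 to 0.84). DCL4 was also called higher in 35S-RTL1-Myc than in Col-0, and lost that call without 35S-RTL1-Myc replicate 1 (0.46) or Col-0 replicate 3 (0.43). The label of whole seedlings was checked against tissue markers. Of 6 root markers, the root tip genes WOX5 and PLT1 stayed at or below 0.239 CPM in every library. SHR and SCR, which are also expressed in shoots, held 16.8 to 48.3 CPM. The remaining root markers were detected in every library. CASP1 held 1.36 to 11.3 CPM in a row joined with AT2G36090, and COBL9 held 0.204 to 1.25 CPM. The 4 floral organ genes AP3, PI, AG and SEP3 summed to 401 to 585 CPM, and the seed storage genes to at most 0.337 CPM. The floral sums overlapped between 35S-RTL1-Myc (502 to 571 CPM) and Col-0 (469 to 544.5 CPM). The clear floral expression and the near absence of these root tip genes, in all 18 libraries alike, go against what whole seedlings of this age would be taken to hold, so seedling is used here only as the word of the label. The library of rtl2-1 replicate 2 stood apart, correlating least with the replicates of its group (mean r = 0.966 over all genes). It held the highest or lowest value of all 18 libraries for 6 of the 10 SPL genes. The share of all rows with such an extreme in this library was not counted, so these 6 cannot be set apart from other genes.

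Levels of different genes can be compared only per length. On that scale, in CPM per kilobase of merged exons in Col-0 (mean ± SD, n = 3), SPL9 was the most abundant of the 7 SPL genes with a row of their own, at 64.55 ± 2.04. SPL2 followed at 31.7 ± 0.774 and SPL4 at 27.9 ± 0.0767. SPL10 stood at 23.0 ± 0.635, SPL11 at 18.6 ± 1.86, SPL15 at 13.0 ± 1.05 and SPL6 at 7.91 ± 0.266. Across libraries SPL9 was also the steadiest, with its highest level 1.41 times its lowest, while SPL2 varied by 4.57 times. Without rtl2-1 replicate 2, which holds the highest SPL2 and the lowest SPL9 value, these spreads were 2.59 times for SPL2 and 1.36 times for SPL9. Summed over the 10 rows, the SPL level was 652.7 ± 24.0 CPM in 35S-RTL1-Myc (SD, n = 2) and 593 ± 6.57 CPM in Col-0 (SD, n = 3). The sums in the other groups were 647 ± 83.6 CPM in rtl2-1, 613 ± 29.2 CPM in 35S-RTL2, 634 CPM in the truncated DCL1 library, 589 ± 14.6 CPM in dcl234 35S-RTL2 and 611 ± 11.9 CPM in dcl234.

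**Figure D1:**
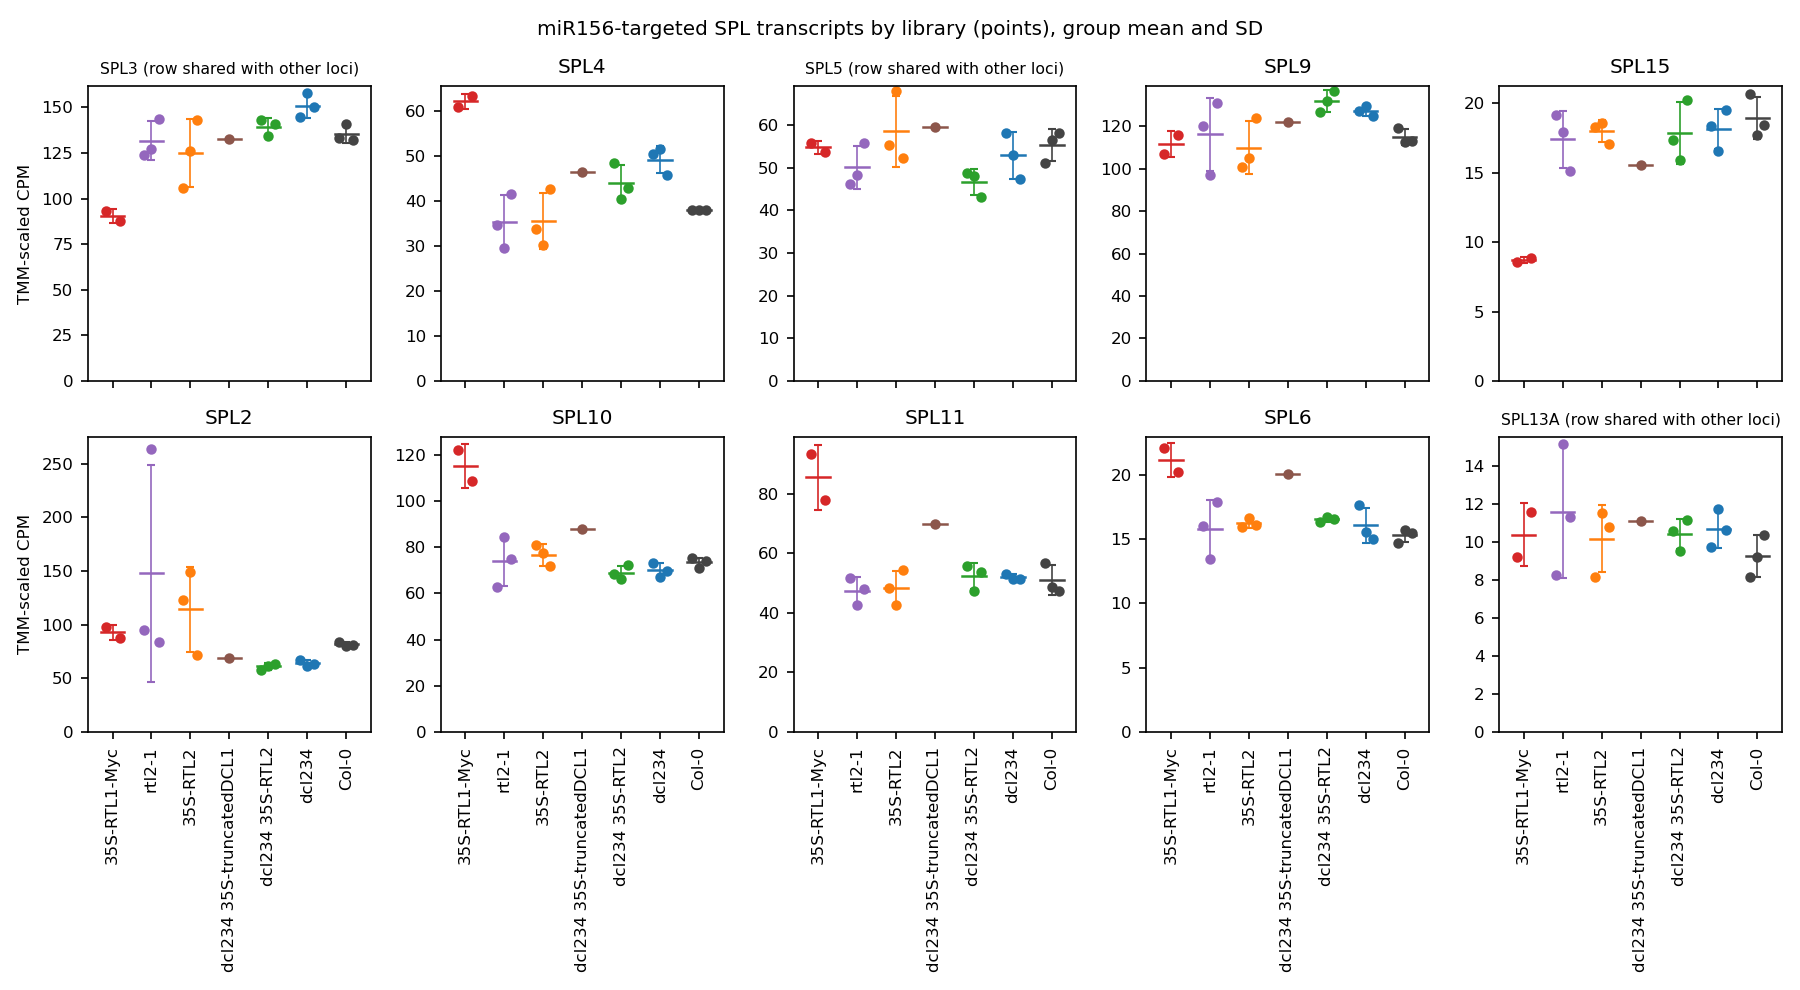
TMM-scaled CPM of each of the 10 SPL rows (vertical axes, each starting at 0) in the 7 groups (horizontal axis); points are libraries, horizontal lines group means and bars the SD. SPL4, SPL10 and SPL11 stand highest and SPL3 and SPL15 lowest in 35S-RTL1-Myc, and the 264 CPM of SPL2 in 1 rtl2-1 library lies far above its other values.

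The order of the groups differed between SPL genes. For SPL4, SPL6, SPL10 and SPL11 the 35S-RTL1-Myc group came first, and the ranges of its libraries did not touch those of the group next in order. Next came dcl234 for SPL4 (45.9 to 51.5 CPM) and the single truncated DCL1 library for the other 3 genes. For SPL3 and SPL15 the same 35S-RTL1-Myc group came last and was again separate from its neighbour. How many of all rows put this group first or last in that way was not counted. Between 35S-RTL1-Myc and Col-0 alone, 61.4% of all rows did not overlap. For SPL5 and SPL13A every group overlapped the next in order. For SPL9 the dcl234 35S-RTL2 group (132 ± 5.13 CPM) and the dcl234 group (127 ± 2.33 CPM) led, and the 35S-RTL2 group was last (109.9 ± 12.4 CPM, SD, n = 3 each). For SPL2 the 7 libraries with the dcl234 mutations lay at 57.8 to 68.95 CPM, below all 11 others, of which the lowest held 71.4 CPM. The share of all rows split in this way was not counted either.

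The comparison of 35S-RTL1-Myc with Col-0 asked whether SPL transcripts differ when RTL1 is overexpressed. SPL4, SPL6, SPL10 and SPL11 rose to 1.385 to 1.68 times the Col-0 level, and SPL3 and SPL15 fell to 0.667 and 0.460 of the Col-0 level. SPL2, SPL5, SPL9 and SPL13A did not pass the test. The quasi-likelihood test of edgeR, Benjamini-Hochberg adjusted over 21343 rows, called 6 of the 10 at an adjusted p below 0.05, 4 higher and 2 lower. In this comparison 29.5% of all rows were called, 14.8% higher and 14.7% lower, and the median log2 change was 0.17 over the 10 SPL rows and −0.00401 over all rows. The libraries of the groups did not overlap for 7 of the 10 SPL genes, which compares with 61.4% of all rows. In bulk libraries, fewer cells of a type and less RNA per cell cannot be told apart, which holds for every difference given here.

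Among the short SPL genes, which carry the site in the 3′ UTR, the 3 members went different ways. SPL4 held 61.0 and 63.4 CPM in 35S-RTL1-Myc, against 38.0, 38.0 and 38.2 CPM in Col-0. Every 35S-RTL1-Myc library was above every Col-0 library, and the Col-0 values hardly differed. The log2 change of SPL4 was 0.71 (SE 0.14, 95% interval 0.41 to 1.01, adjusted p = 0.00148 by edgeR's test). SPL3, the best known flowering promoter among the short genes, held 92.9 and 87.6 CPM in 35S-RTL1-Myc, against 133, 141 and 132 CPM in Col-0. Both 35S-RTL1-Myc libraries were below all of Col-0. Its row, which includes the antisense RNA, fell by 0.59 on the log2 scale (SE 0.11, 95% interval −0.82 to −0.35, adjusted p = 0.000999 by edgeR's test). SPL5, whose site has the most mismatches of the 10, held 55.7 and 53.7 CPM in 35S-RTL1-Myc, against 51.1, 56.6 and 58.1 CPM in Col-0. Here the groups overlapped, and the log2 difference of −0.01 had a 95% interval of −0.27 to 0.24.

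SPL9 and SPL15 are close relatives, with 64.2% identity of their coding sequences and the same target site, and SPL15 was called while SPL9 was not. SPL15, which promotes flowering at the shoot tip, held 8.58 and 8.85 CPM in 35S-RTL1-Myc, against 20.65, 17.7 and 18.4 CPM in Col-0. The 35S-RTL1-Myc libraries were the lowest of all 18. SPL15 fell by 1.12 on the log2 scale (SE 0.13, 95% interval −1.39 to −0.85, adjusted p = 2.01e-05 by edgeR's test). SPL9, which activates the microRNA miR172 in the age pathway, held 107 and 116 CPM in 35S-RTL1-Myc, against 119, 113 and 113 CPM in Col-0. These values overlapped, with a log2 difference of −0.04 (SE 0.11, 95% interval −0.28 to 0.20). The intervals of SPL15 and SPL9 do not meet, and the difference between the genes was not itself tested.

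In the leaf-shape group, SPL10 and SPL11 rose and SPL2 did not pass the test. SPL10 held 122 and 109 CPM in 35S-RTL1-Myc, against 75.1, 71.2 and 73.9 CPM in Col-0. SPL11, its closest relative, held 93.2 and 77.8 CPM in 35S-RTL1-Myc, against 56.8, 48.7 and 47.35 CPM in Col-0. For both genes the 35S-RTL1-Myc libraries were the highest of all 18. The log2 change was 0.65 (SE 0.10, 95% interval 0.43 to 0.87) for SPL10 and 0.75 (SE 0.12, 95% interval 0.50 to 1.00) for SPL11, with adjusted p of 0.000311 and 0.000297 by edgeR's test. SPL2 held 97.8 and 87.8 CPM in 35S-RTL1-Myc, against 84.1, 80.2 and 81.4 CPM in Col-0. Its groups did not overlap either, but the shared estimate of spread is wide for this gene, which varied most within rtl2-1 and 35S-RTL2. The log2 difference of SPL2 was 0.18 (SE 0.37, 95% interval −0.61 to 0.97, adjusted p = 0.751 by edgeR's test).

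SPL6 held 22.1 and 20.25 CPM in 35S-RTL1-Myc, against 14.7, 15.7 and 15.4 CPM in Col-0, with both 35S-RTL1-Myc libraries above all of Col-0. The log2 change was 0.47 (SE 0.11, 95% interval 0.24 to 0.70, adjusted p = 0.00400 by edgeR's test). Without 35S-RTL1-Myc replicate 1 the log2 value was 0.41 and the adjusted p was 0.0502 by the same test, so the call was lost while the value stayed close. With either 35S-RTL1-Myc library left out, here and below, the 1 that remains has no replicate and takes its spread from the rest of the groups. SPL13A held 9.23 and 11.6 CPM in 35S-RTL1-Myc, against 8.15, 9.23 and 10.4 CPM in Col-0. Its groups overlapped, and the log2 difference of 0.17 had a 95% interval of −0.28 to 0.62.

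**Figure D2:**
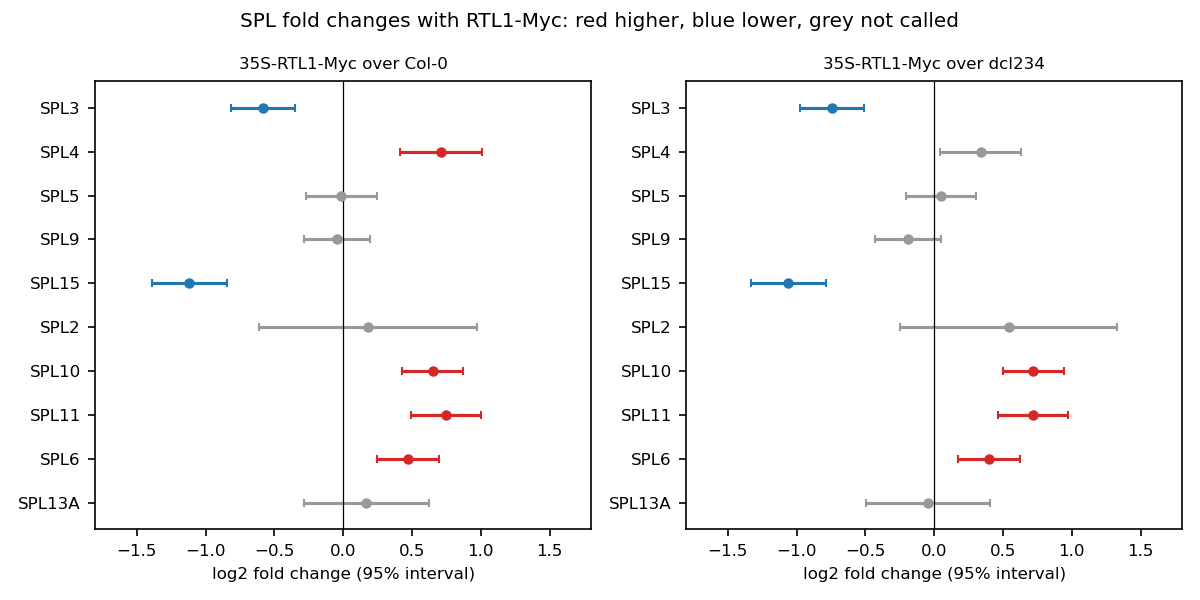
Log2 fold change (horizontal axis) of each of the 10 SPL rows (vertical axis) in 35S-RTL1-Myc over Col-0 (left) and over dcl234 (right); points are estimates and bars 95% intervals, in red or blue where edgeR's test called the row higher or lower and in grey where it did not. SPL15 lies lowest in both panels, at −1.12 and −1.06, and SPL10 and SPL11 lie between 0.65 and 0.75 in both.

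Clock genes differed in the same libraries. LHY, a transcription factor that peaks in the morning, held 149 and 104 CPM in 35S-RTL1-Myc, against 4.515, 3.54 and 3.41 CPM in Col-0, and its partner CCA1 held 128 and 104 CPM, against 8.99, 8.48 and 5.09 CPM. The evening gene TOC1 held 32.5 and 87.4 CPM in 35S-RTL1-Myc, against 135, 145.5 and 166 CPM in Col-0, and GI held 60.55 and 97.3 CPM, against 173, 163 and 169 CPM. All 4 clock genes passed edgeR's test, 2 higher and 2 lower, where 29.5% of all rows were called. Log2 changes were 5.05 for LHY, 3.94 for CCA1, −1.31 for TOC1 and −1.09 for GI. The TOC1 value depended on the library, at −0.77 without 35S-RTL1-Myc replicate 1 and −2.18 without replicate 2. The truncated DCL1 library held 26.1 CPM of LHY and 61.1 CPM of CCA1, also above every Col-0 library. Tissue markers differed less. The 4 floral organ genes gave 0 calls in 35S-RTL1-Myc against Col-0, with 0 at an unadjusted p below 0.05. The 5 photosynthesis genes gave 1, CAB3, lower at a log2 of −0.90, and it was the only 1 at an unadjusted p below 0.05. Of the 6 root markers 4 passed the filter, and these gave 1 call, COBL9, lower at −1.81. That share is near the 29.5% of all rows called. Of the 4, 2 had an unadjusted p below 0.05, where 8549 of all 21343 rows did in this comparison. CAB3 lost its call without 35S-RTL1-Myc replicate 2 (−0.77), and COBL9 without either 35S-RTL1-Myc library (−1.65 and −1.96) and without Col-0 replicate 1 or 2 (−1.36 and −1.79). The summed root markers lay at 78.4 to 82.4 CPM in 35S-RTL1-Myc, against 64.6 to 68.3 CPM in Col-0, and so did not overlap. The labels give no hour of harvest, so a difference in time of day and an effect of the construct cannot be told apart, and the part of clock or tissue genes in the SPL differences was not tested.

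**Figure D3:**
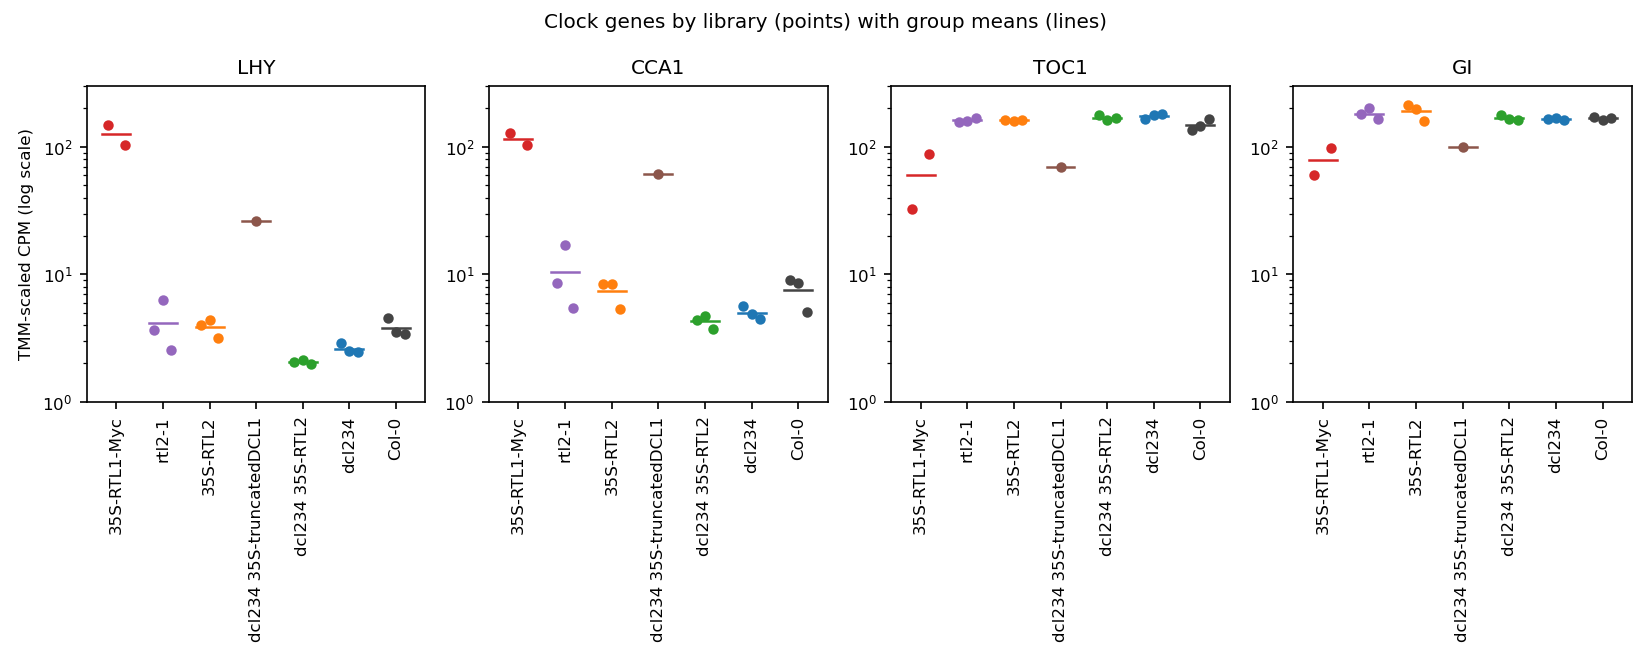
TMM-scaled CPM on a log axis of LHY, CCA1, TOC1 and GI in each library (points) of the 7 groups (horizontal axis), with group means as lines. LHY is at 104 to 149 CPM in 35S-RTL1-Myc and 26.1 CPM in the truncated DCL1 library, and between 1.99 and 6.305 CPM in the other libraries.

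Set against dcl234 in place of Col-0, the 35S-RTL1-Myc libraries gave calls for 5 SPL genes. This comparison uses the same 35S-RTL1-Myc libraries, so it is no independent repeat. It asks how 35S-RTL1-Myc differs from seedlings that carry the dcl2, dcl3 and dcl4 mutations. Of the 10, 3 were higher (SPL6, SPL10, SPL11) and 2 lower (SPL3, SPL15), where 22.9% of all rows were called, 12.4% higher and 10.6% lower. The log2 change was −0.74 (SE 0.11) for SPL3, 0.40 (SE 0.11) for SPL6, 0.72 (SE 0.10) for SPL10, 0.72 (SE 0.12) for SPL11 and −1.06 (SE 0.13) for SPL15. Adjusted p by edgeR's test was 0.0133 for SPL6 and at most 0.000537 for the others. SPL6 lost its call without 35S-RTL1-Myc replicate 1 (log2 0.34, adjusted p = 0.135 by edgeR's test) and without dcl234 replicate 3 (log2 0.36, adjusted p = 0.0522). SPL4 was not called, with a log2 difference of 0.34 (SE 0.14, adjusted p = 0.0972 by edgeR's test). Its 61.0 and 63.4 CPM in 35S-RTL1-Myc still lay above the 50.5, 51.5 and 45.9 CPM in dcl234. With the 35S-RTL1-Myc and dcl234 libraries fitted alone, SPL4 was called at 0.34 (adjusted p = 0.0113 by edgeR's test) and SPL2 at 0.55 (adjusted p = 0.00215), which made 7 of the 10, 5 higher and 2 lower. The groups did not overlap for 8 of the 10, which compares with 58.6% of all rows. All 4 clock genes were called here too, 2 higher and 2 lower. Under other settings the log2 values were 5.32 to 5.84 for LHY and 4.32 to 4.71 for CCA1. Those of TOC1 were −2.42 to −1.0 and those of GI −1.44 to −0.76. CAB3 was called lower, and lost its call without any 1 of the 5 libraries compared (−0.83 to −0.59). The part of these genes in the SPL values was not tested.

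The dcl234 mutations gave no SPL call against Col-0. By edgeR's test 0 of the 10 were called in dcl234 against Col-0, where 4.56% of all rows were called, 0.754% higher and 3.80% lower. At an unadjusted p below 0.05 there was 1, SPL4, where 3692 of all 21343 rows were below it, and DESeq2 called 0 of the 10. SPL4 held 50.5, 51.5 and 45.9 CPM in dcl234, against 38.0, 38.0 and 38.2 CPM in Col-0. All dcl234 libraries were above all Col-0 libraries, with a log2 difference of 0.37 (SE 0.13, 95% interval 0.10 to 0.64, adjusted p = 0.121 by edgeR's test). SPL2 had the lowest value, 67.1, 61.5 and 63.0 CPM in dcl234, against 84.1, 80.2 and 81.4 CPM in Col-0. These groups were separate too, and the log2 difference was −0.36 (SE 0.33, 95% interval −1.07 to 0.36). With the dcl234 and Col-0 libraries fitted alone, where the spread of the other groups does not enter, edgeR's test called 2, SPL4 higher and SPL2 lower. Groups did not overlap for 4 of the 10, SPL2, SPL3, SPL4 and SPL9, against 36.5% of all rows.

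The same mutations could be compared in seedlings that overexpressed RTL2, in libraries that the comparison above does not use. Between dcl234 35S-RTL2 and 35S-RTL2, 1 of the 10 was called, where 20.9% of all rows were called, 9.11% higher and 11.8% lower. SPL5 held 48.85, 48.1 and 43.1 CPM in dcl234 35S-RTL2, against 55.4, 67.9 and 52.3 CPM in 35S-RTL2. Its groups did not overlap, and its row, which includes AT3G15260, fell by 0.33 on the log2 scale (SE 0.11, 95% interval −0.56 to −0.10, adjusted p = 0.0445 by edgeR's test). The call stands close to the threshold, and leaving out single libraries gave from 0 to 5 called SPL genes. Without 35S-RTL2 replicate 3 the 5 called were SPL3, SPL4 and SPL9 higher and SPL2 and SPL5 lower. Leaving out any other single library of the comparison gave 0, with SPL5 between −0.37 (without 35S-RTL2 replicate 1) and −0.21 (without 35S-RTL2 replicate 2). With these groups fitted alone the count was again 1 but of another gene: SPL2 was called lower at −0.92 (adjusted p = 0.0304 by edgeR's test) and SPL5 was not called, at −0.34 (adjusted p = 0.0711). The summed floral organ markers also stood apart here, at 402 to 436 CPM in dcl234 35S-RTL2, against 490.2 to 549 CPM in 35S-RTL2, and SEP3 was called lower at a log2 of −0.35 under this and 7 of 16 other settings. Leaving out any 1 of the 6 libraries ended the SEP3 call, with log2 values from −0.41 to −0.31. The clock gene LHY was called lower as well, at −0.91, and lost its call without any 1 of the libraries other than 35S-RTL2 replicate 3 (−0.94 to −0.80). The part of these genes in the SPL values was not tested.

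SPL2 held 57.8, 61.9 and 63.4 CPM in dcl234 35S-RTL2, against 123, 149.5 and 71.4 CPM in 35S-RTL2. Every dcl234 35S-RTL2 library was lower, and the 35S-RTL2 libraries were far apart. The log2 difference was −0.91 (SE 0.34, 95% interval −1.63 to −0.19, adjusted p = 0.0668 by edgeR's test). SPL9 held 126.5, 132 and 137 CPM in dcl234 35S-RTL2, against 101, 105 and 124 CPM in 35S-RTL2, with no overlap and a log2 difference of 0.26 (SE 0.10, adjusted p = 0.0746 by edgeR's test). SPL4 held 48.6, 40.6 and 43.05 CPM in dcl234 35S-RTL2, against 33.9, 30.4 and 42.6 CPM in 35S-RTL2. The SPL4 groups overlapped, with a log2 difference of 0.31 (SE 0.13, adjusted p = 0.0934 by edgeR's test). The groups did not overlap for 3 of the 10, against 40.1% of all rows.

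Side by side, the 10 SPL genes had the same sign of the dcl234 difference in both backgrounds, as did 78.2% of all rows. Many of these differences were near 0. SPL5, SPL6, SPL11 and SPL15 in dcl234 against Col-0, and SPL6, SPL13A and SPL15 in dcl234 35S-RTL2 against 35S-RTL2, changed sign under at least 1 other setting.

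**Figure D4:**
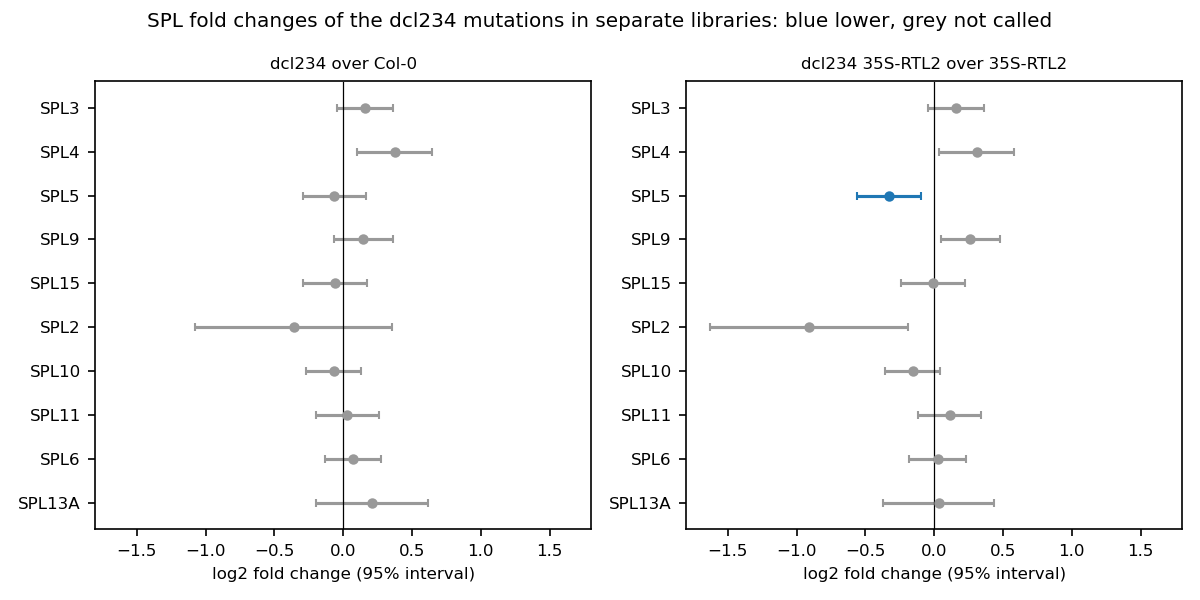
Log2 fold change (horizontal axis) of each of the 10 SPL rows (vertical axis) in dcl234 over Col-0 (left) and in dcl234 35S-RTL2 over 35S-RTL2 (right); points are estimates and bars 95% intervals, in blue where edgeR's test called the row lower and in grey where it did not. Only SPL5 in the right panel was called, at −0.33, and the bars of SPL2 are the widest in both panels.

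The truncated DCL1 library was compared with the 3 dcl234 libraries. With 1 library the comparison has no replicate check, and the test assumes that it varies like the other groups. By edgeR's test 0 of the 10 SPL genes were called, where 5.65% of all rows were, 4.70% higher and 0.946% lower, and DESeq2 called 0. At an unadjusted p below 0.05 there were 3, SPL6, SPL10 and SPL11, all higher, where 3322 of all 21343 rows were below it. SPL11 held 70.0 CPM in the truncated DCL1 library, against 53.1, 51.3 and 51.4 CPM in dcl234. SPL10 held 88.0 CPM, against 73.1, 67.2 and 69.6 CPM, and SPL6 held 20.1 CPM, against 17.6, 15.6 and 15.0 CPM. For these 3 genes the truncated DCL1 library lay above all dcl234 libraries, with log2 differences of 0.43 (SE 0.15) for SPL11, 0.33 (SE 0.13) for SPL10 and 0.32 (SE 0.13) for SPL6. Adjusted p by edgeR's test was 0.127, 0.200 and 0.228 in that order. The single library lay outside the dcl234 range for 8 of the 10, against 68.3% of all rows. Its clock genes also differed from dcl234, with log2 changes of 3.32 for LHY, 3.62 for CCA1 and −1.34 for TOC1, all called by edgeR's test, though TOC1 lost its call without any 1 of the dcl234 libraries (−1.37 to −1.31). The photosynthesis gene LHCB2.1 was higher by a log2 of 1.43, and lost its call without dcl234 replicate 2 or 3 (1.40 and 1.39). The part of these genes in the SPL values was not tested.

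Changes of RTL2 alone gave no SPL call in either direction of dose. In 35S-RTL2 against Col-0, edgeR's test called 0 of the 10, where 0.00937% of all rows were called, 0.00469% in each direction. At an unadjusted p below 0.05 there were 0, where 956 of all 21343 rows were below it, and DESeq2 called 0 of the 10. Log2 differences ran from −0.12 for SPL3 to 0.48 for SPL2. SPL6 was the 1 gene whose groups did not overlap, with 15.9, 16.65 and 16.1 CPM in 35S-RTL2 and 14.7, 15.7 and 15.4 CPM in Col-0, where 10.7% of all rows did not overlap. Within the dcl234 mutant, RTL2 overexpression likewise gave 0 calls by edgeR's test, 0 at an unadjusted p below 0.05 and 0 by DESeq2. Of all rows, 0.0609% were called there, 0.0187% higher and 0.0422% lower, and 1157 of the 21343 had an unadjusted p below 0.05. Log2 differences there ran from −0.18 for SPL5 to 0.05 for SPL9. SPL3 did not overlap, with 143, 134 and 141 CPM in dcl234 35S-RTL2 and 144.5, 158 and 150.2 CPM in dcl234, against 14.7% of all rows. Summed floral organ markers were separate too, at 402 to 436 CPM in dcl234 35S-RTL2, against 468.5 to 585 CPM in dcl234. Of the 4 floral genes 0 were called and 3 had an unadjusted p below 0.05. Summed root markers lay at 80.3 to 82.2 CPM, against 64.9 to 76.1 CPM. The part of these markers in the SPL values was not tested. The difference between the RTL2 effects in dcl234 and in Col-0 was also tested, and 0 of the 10 were called by edgeR's test, 0 at an unadjusted p below 0.05 and 0 by DESeq2, where 0.00937% of all rows were called, all of them negative. These differences ran from −0.55 for SPL2 to 0.11 for SPL9. Of all 21343 rows, 1123 had an unadjusted p below 0.05 in this test.

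In the rtl2-1 mutant against Col-0, edgeR's test called 0 of the 10 and DESeq2 called 0, where 0.122% of all rows were called by edgeR's test, 0.0750% higher and 0.0469% lower. At an unadjusted p below 0.05 there were 2427 of all 21343 rows and, of the 10, SPL2 alone. It held 95.1, 264 and 84.1 CPM in rtl2-1, against 84.1, 80.2 and 81.4 CPM in Col-0. The groups overlapped, and 1 rtl2-1 library was the highest of all 18. The log2 difference was 0.85 (SE 0.33, 95% interval 0.14 to 1.57, adjusted p = 0.392 by edgeR's test). Without rtl2-1 replicate 2 it was 0.13, and without replicate 1 or 3 it was 1.08 or 1.13. That same library held the lowest values of SPL4 (29.5 CPM), SPL6 (13.5 CPM), SPL9 (97.2 CPM) and SPL11 (42.6 CPM) and the highest of SPL13A (15.2 CPM). The groups overlapped for all 10 SPL genes, where 13.3% of all rows did not.

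The 6 SPL genes with no close match to miR156 were read in the same way. In 35S-RTL1-Myc against Col-0, 2 of 6 were higher by edgeR's test and 0 lower, with a median log2 of 0.09, a share near the 29.5% of all rows called. SPL1, which acts with SPL12 in thermotolerance of flowers, stood at 332 ± 49.45 CPM in 35S-RTL1-Myc (SD, n = 2) and 212 ± 12.3 CPM in Col-0 (SD, n = 3), a log2 change of 0.64 (SE 0.10, adjusted p = 0.000369 by edgeR's test). SPL7, the master regulator of the copper response, stood at 66.7 ± 9.17 CPM in 35S-RTL1-Myc and 47.7 ± 1.10 CPM in Col-0, a log2 change of 0.48 (SE 0.10, adjusted p = 0.00259 by edgeR's test). Without 35S-RTL1-Myc replicate 1 the SPL7 value was 0.33 and its adjusted p 0.0633. Against dcl234 SPL1 and SPL7 were called as well, at 0.63 and 0.43, and again SPL7 lost its call without that library (0.28, adjusted p = 0.158 by edgeR's test). Between dcl234 35S-RTL2 and 35S-RTL2, SPL8, which is needed for pollen sac development, was lower at a log2 of −0.75 (SE 0.25) and SPL14 at −0.35 (SE 0.11), with adjusted p of 0.0455 and 0.0408 by edgeR's test. SPL8 and SPL14 each lost the call under 6 of 16 other settings. SPL8 lost it without any 1 of the libraries other than 35S-RTL2 replicate 3, with log2 values from −0.79 to −0.52. SPL14 lost it without replicate 2 or 3 of dcl234 35S-RTL2 and without replicate 1 or 2 of 35S-RTL2, with values from −0.32 to −0.26. In dcl234 against Col-0, where 4.56% of all rows were called, 0 of the 6 were called by edgeR's test and 1 had an unadjusted p below 0.05. Such a p was held by 3692 of all 21343 rows.

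The precursors that give miR156 were scarcely measured, and mature microRNAs were not analysed here. Of 12 MIR156 and MIR157 rows, 3 passed the filter, and 2 were lower in 35S-RTL1-Myc than in Col-0, where 14.7% of all rows were called lower. The MIR156D row, which is joined with AT5G10946, held 2.425 and 2.86 CPM in 35S-RTL1-Myc, against 3.93, 5.95 and 5.56 CPM in Col-0. The MIR156F row, joined with AT5G26150 and AT5G26146, held 1.45 and 1.225 CPM in 35S-RTL1-Myc, against 3.93, 3.05 and 3.235 CPM in Col-0. In both rows the groups were separate, with log2 changes of −0.96 (SE 0.26, adjusted p = 0.0108 by edgeR's test) and −1.35 (SE 0.29, adjusted p = 0.00299). MIR156D lost its call without 35S-RTL1-Myc replicate 1 (−0.85, adjusted p = 0.0955 by edgeR's test). Against dcl234, MIR156D was lower at a log2 of −1.06 (SE 0.26) and lost its call without the same library (−0.94, adjusted p = 0.0903 by edgeR's test). MIR156F was also lower in dcl234 35S-RTL2 than in 35S-RTL2, with a log2 change of −1.12 (SE 0.25, adjusted p = 0.00807 by edgeR's test). Since these rows hold other genes as well, the changes cannot be given to the precursors.

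Of 11 genes for microRNA maturation and action, 1 was higher and 1 lower in 35S-RTL1-Myc than in Col-0 by edgeR's test, where 29.5% of all rows were called. DDL, a factor that helps precursor processing, rose by 0.30 on the log2 scale (SE 0.09, adjusted p = 0.0235 by edgeR's test), and the call ended without 35S-RTL1-Myc replicate 2 (0.21) and without Col-0 replicate 3 (0.25). The row of SQN, a cyclophilin that aids AGO1, fell by 0.33 on the log2 scale (SE 0.11, adjusted p = 0.0363 by edgeR's test) with a call under 7 of 14 other settings. It is joined with AT2G15800, and lost its call without either 35S-RTL1-Myc library (−0.42 and −0.22) and without Col-0 replicate 2 or 3 (−0.30 and −0.32). Between dcl234 35S-RTL2 and 35S-RTL2, HEN1, which methylates small RNAs, was higher by 0.37 (SE 0.10) and DDL by 0.28 (SE 0.08) on the log2 scale. HEN1 lost its call without replicate 2 of either group (0.34 and 0.31), and DDL without replicate 2 or 3 of dcl234 35S-RTL2 and replicate 1 or 2 of 35S-RTL2 (0.22 to 0.28). AGO1 was not called in any comparison. DCL1 was called once, in the truncated DCL1 library, where its row of 3 loci held 1417 CPM, against 149 ± 4.81 CPM in dcl234 (SD, n = 3). The DCL3 row was called lower in that library than in dcl234 (log2 −1.16 to −0.92 under other settings), and lost its call without dcl234 replicate 1 or 3.

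Regulators of MIR156 transcription gave 1 higher and 2 lower of 8 in 35S-RTL1-Myc against Col-0, which is near the 29.5% of all rows called. SWN and CLF are histone methyltransferases of the Polycomb complex that represses MIR156 genes with age, and AGL15 and AGL18 are MADS-box factors that promote MIR156 expression. SWN rose by 0.45 on the log2 scale (SE 0.07, adjusted p = 0.000199 by edgeR's test), with 75.6 CPM in 35S-RTL1-Myc and 55.3 CPM in Col-0 as means of 2 and 3 libraries. CLF fell by 0.25 (SE 0.08, adjusted p = 0.0230 by edgeR's test), and lost its call without either 35S-RTL1-Myc library (−0.29 and −0.20) or without Col-0 replicate 3 (−0.23). AGL18 fell by 0.72 (SE 0.15, adjusted p = 0.00205 by edgeR's test), with 14.5 CPM in 35S-RTL1-Myc and 24.0 CPM in Col-0 as means. Against dcl234, SWN was higher by 0.39 and AGL15 by 0.68 on the log2 scale. AGL15 lost its call without any 1 of the 5 libraries compared (0.62 to 0.73). Between dcl234 35S-RTL2 and 35S-RTL2, AGL18 was lower at a log2 of −0.66 (SE 0.13) and CLF higher at 0.25 (SE 0.07). CLF lost its call without 35S-RTL2 replicate 1 (0.22) and without dcl234 35S-RTL2 replicate 3 (0.22). In dcl234 against Col-0, edgeR's test called 0 of the 8 regulators, 0 of the 11 maturation genes and 0 of the 3 precursor rows. Of all rows, 4.56% were called there, and each of these lists had 1 gene at an unadjusted p below 0.05. Such a p was held by 3692 of all 21343 rows.

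Of 12 flowering genes known downstream of SPL proteins, 10 passed the filter, and 1 was higher and 2 lower in 35S-RTL1-Myc than in Col-0, a share close to the 29.5% of all rows called. FT, the mobile flowering signal made in leaves, held 6.33 and 5.48 CPM in 35S-RTL1-Myc, against 42.1, 43.5 and 33.8 CPM in Col-0. The groups lay far apart, with a log2 change of −2.75 (SE 0.45, adjusted p = 0.000357 by edgeR's test). FD, the transcription factor that acts with FT, fell by 0.84 (SE 0.23, adjusted p = 0.0139 by edgeR's test), and lost its call without 35S-RTL1-Myc replicate 1 (−0.60, adjusted p = 0.157). FUL, a MADS-box target of SPL proteins, was higher by 0.345 (SE 0.12, adjusted p = 0.0485 by edgeR's test), with a call under 7 of 15 other settings. FUL lost its call without 35S-RTL1-Myc replicate 1 (0.15) and without any 1 of the Col-0 libraries (0.29 to 0.37), and stood at 0.53 without 35S-RTL1-Myc replicate 2. In dcl234 against Col-0, 1 was higher and 1 lower, where 4.56% of all rows were called, 0.754% higher and 3.80% lower. SOC1, a MADS-box flowering integrator, was higher by 0.31 (SE 0.08, adjusted p = 0.0486 by edgeR's test), with a call under 4 of 16 other settings. SOC1 lost its call without any 1 of the libraries other than Col-0 replicate 2 (0.24 to 0.31). FT was lower at a log2 of −1.49 (SE 0.36, adjusted p = 0.0280 by edgeR's test), and lost its call without any 1 of the libraries other than Col-0 replicate 3 (−1.57 to −1.38).

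Of the same 10 flowering genes that passed the filter, 1 was higher and 3 lower in 35S-RTL1-Myc against dcl234 by edgeR's test. In this comparison 22.9% of all rows were called, 12.4% higher and 10.6% lower. FUL was higher at a log2 of 0.47 (SE 0.12) and FD lower at −1.14 (SE 0.23), and both lost the call without 35S-RTL1-Myc replicate 1 (0.28 and −0.91). FT was lower at −1.26 (SE 0.43), and lost its call without any 1 of the 5 libraries compared (−1.37 to −1.16). MIR172B, a precursor of miR172, was lower at −1.14 (SE 0.37), and lost its call without either 35S-RTL1-Myc library and without dcl234 replicate 2 or 3 (−1.20 to −1.01). FT was also lower in dcl234 35S-RTL2 than in 35S-RTL2, where it held 22.3, 11.1 and 16.25 CPM, against 67.6, 63.1 and 33.0 CPM. All 3 dcl234 35S-RTL2 libraries were below all of 35S-RTL2, with a log2 change of −1.72 (SE 0.36, adjusted p = 0.00503 by edgeR's test).

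Of the 6 AP2-like genes that miR172 targets, most of which delay flowering, 3 were higher and 1 lower in 35S-RTL1-Myc than in Col-0, where 14.8% of all rows were called higher and 14.7% lower. TOE2 averaged 87.8 ± 5.14 CPM in 35S-RTL1-Myc (SD, n = 2) and 19.8 ± 1.23 CPM in Col-0 (SD, n = 3), a log2 change of 2.145 (SE 0.11, adjusted p = 2.99e-08 by edgeR's test). TOE1 averaged 10.2 ± 3.68 CPM in 35S-RTL1-Myc and 3.37 ± 0.554 CPM in Col-0, a log2 change of 1.59 (SE 0.30, adjusted p = 0.00125 by edgeR's test). SNZ, at 1.16 ± 0.619 CPM in 35S-RTL1-Myc and 0.187 ± 0.0693 CPM in Col-0, rose by 2.59 (SE 0.44). AP2, which also specifies floral organs, fell by 0.56 (SE 0.16, adjusted p = 0.0160 by edgeR's test), and lost its call without either 35S-RTL1-Myc library (−0.64 and −0.48). Against dcl234, TOE2 was higher by 1.92 (SE 0.11) and TOE1 by 1.11 (SE 0.30) on the log2 scale. TOE1 lost its call without 35S-RTL1-Myc replicate 2 (0.68) and without dcl234 replicate 2 (1.04). Between dcl234 35S-RTL2 and 35S-RTL2, SNZ was higher at a log2 of 1.97 (SE 0.44) and AP2 lower at −0.71 (SE 0.14). In the truncated DCL1 library SNZ was higher than in dcl234 by a log2 of 1.67 (SE 0.45), and lost its call without any 1 of the dcl234 libraries (1.60 to 1.74). In dcl234 against Col-0, where 4.56% of all rows were called, 0 of the 6 were called by edgeR's test and 2 had an unadjusted p below 0.05. Such a p was held by 3692 of all 21343 rows.

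Of 5 trichome and pigment genes downstream of SPL9, 1 was called in 35S-RTL1-Myc against Col-0, where 29.5% of all rows were called. TCL1, a repressor of trichomes, fell by 0.71 on the log2 scale (SE 0.15, adjusted p = 0.00254 by edgeR's test), and lost its call without 35S-RTL1-Myc replicate 2 (−0.51, adjusted p = 0.0615). DFR and LDOX, enzymes of anthocyanin synthesis, were lower in dcl234 than in Col-0. DFR averaged 0.640 ± 0.221 CPM in dcl234 and 7.08 ± 3.04 CPM in Col-0, and LDOX 1.13 ± 0.1975 CPM in dcl234 and 9.48 ± 3.87 CPM in Col-0 (SD, n = 3 each). Log2 changes were −3.49 (SE 0.80) for DFR and −3.08 (SE 0.63) for LDOX, with adjusted p of 0.0233 and 0.0130 by edgeR's test in that order. DFR lost its call without any 1 of the libraries other than Col-0 replicate 3 (−3.79 to −3.21), and LDOX without dcl234 replicate 1 or 3 or Col-0 replicate 1 (−3.08 to −2.84). In dcl234 35S-RTL2 against 35S-RTL2 they were lower at −3.22 (SE 0.75) and −2.88 (SE 0.59). In 35S-RTL1-Myc against dcl234 they were higher by 3.67 (SE 0.84) and 3.02 (SE 0.67), and both lost the call without 35S-RTL1-Myc replicate 1 (2.92 and 2.35). TCL1 was lower there at −0.56 (SE 0.15), and lost its call without 35S-RTL1-Myc replicate 2 (−0.37). TRY, another trichome repressor, was higher in the truncated DCL1 library than in dcl234 by a log2 of 1.05 (SE 0.24), and lost its call without dcl234 replicate 3 (1.02).

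For each SPL gene the row most like it over the 18 libraries was sought by Pearson's r of log2 CPM, as a description. SPL11 was most like AT3G16940 (r = 0.974), SPL2 like XTR6 (r = 0.969), SPL9 like AT3G23940 (r = 0.965) and SPL4 like the joined row of AT1G68568 and AT1G68570 (r = 0.963). SPL10 was most like ASG1 (r = 0.959), SPL15 like AT1G33470 (r = 0.932), SPL3 like AT5G10010 (r = 0.926) and SPL6 like ROT4 (r = 0.897). The lowest of these best values were those of SPL13A with AT5G40530 (r = 0.846) and SPL5 with AT4G22190 (r = 0.791). All pairs share the same libraries, their depth and the groups, and each partner is the highest of a whole table. No partner was shared between SPL genes.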

How the data were processed

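RNA of 18 libraries in 7 groups was analysed from the deposited counts, whole-number reads per row, not normalized. They refer to TAIR9, per the submitters' processing notes. Which aligner and counter were run, and whether strand was used, is not given in the sources used here. A library holds 31362 rows, of which 1897 join 2 or more loci, and 0 rows name no locus. The filter on low counts (filterByExpr of edgeR) kept 21343. After TMM scaling, glmQLFit and glmQLFTest of edgeR 4.0.16 in R 4.3.3 fitted all libraries together with 1 mean for each group, and p-values were Benjamini-Hochberg adjusted over all rows, called below 0.05. SEs come from the quasi-likelihood F statistic. Levels are TMM-scaled CPM, with SD over replicates, and the biological coefficient of variation was 15.1%. Replicates of a group correlated at r = 0.964 to 0.993, and no pair was alike within counting noise (chi-square per degree of freedom at least 4.91), so none was merged.

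The members, gene lists and tests were chosen with earlier results of these data known. Named were the 10 SPL genes and SPL13B, up to 4 called genes of each other list with the smallest adjusted p in 35S-RTL1-Myc or dcl234 against Col-0, any called in another comparison, RTL1, RTL2, 4 clock genes and, for likeness, the 1 row with the highest Pearson r of log2 CPM (prior count 2). All 12 genes in the list of flowering genes, and all entries of the other lists, had a row. Gene names, target sites and microRNA sequences were read from RefSeq tables and the TAIR10.1 genome. A site was the best ungapped match to the complement of miR156a-5p in a transcript, and coordinates are on that assembly, not on the TAIR9 build of the counts.

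Alternatives were DESeq2 size factors or library totals for scaling, DESeq2 1.42.0 as the test, no filter or at least 1 CPM in 3 libraries, the compared groups alone, the replicate number as a block, the number in the file names as a batch term, joined rows removed, SPL13A and SPL13B summed, and each replicate left out. The fits were tested on simulated counts first.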

Additional observations from a re-analysis of the deposited data

How the results depend on the processing

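Of 1403 values of the 10 SPL genes under other settings, 64 changed sign, all of genes whose main log2 was at most 0.11 in size, and 11 lost and 10 gained a call. In 35S-RTL1-Myc against Col-0, SPL5 turned to 0.03 with library totals only and ran from −0.07 to 0.02 with single libraries left out, and SPL9 ran from −0.09 to 0.01, the last without 35S-RTL1-Myc replicate 1. In dcl234 against Col-0, the count of called SPL genes was 2 with the compared groups alone and 0 otherwise. In 35S-RTL1-Myc against dcl234, the compared groups alone gave 7, adding SPL2 and SPL4. In dcl234 35S-RTL2 against 35S-RTL2, where 1 was called, the count was 0 with library totals only, 0 with no filter, 0 with joined rows removed (which takes out the SPL5 row), 2 with DESeq2, 1 with the compared groups alone (SPL2 in place of SPL5) and 0 to 5 with single libraries left out; apart from the removed row the cause was not tested.

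The replicate numbers did not establish pairs: over 40 pairs of same-numbered libraries the correlation of deviations from the group means ran from −0.302 to 0.539, and 15 were over 0.1. In no comparison made here were all same-numbered pairs over 0.1. Between 35S-RTL2 and rtl2-1, which were not compared, all 3 were, at 0.31, 0.471 and 0.539, and SPL2 was highest in replicate 2 and lowest in replicate 3 of both groups. With the replicate block the count of called SPL genes was 6 in 35S-RTL1-Myc against Col-0 (4 higher, 2 lower), 5 against dcl234 (3 higher, 2 lower), 1 in dcl234 35S-RTL2 against 35S-RTL2 and 0 in the other comparisons fitted with it. The truncated DCL1 library has no fit with the block or with its groups alone. Precision is limited by 2 libraries of 35S-RTL1-Myc and by rows joined with other loci.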
